A study of Mus musculus with 6 samples.

Results

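The genes of oxidative phosphorylation were followed in 6 RNA-seq libraries of mouse tumours. They were taken from the deposited table by symbol alone, as every symbol that begins with mt- together with the nuclear families Nduf (a, b, c, s and v), Sdh (a to d), Uqcr, Cox4 to Cox8 and Atp5. The rule found 109 of the 21720 symbols, 13 encoded by the mitochondrial genome and 96 by the nucleus. All 13 mitochondrial-encoded members are protein-coding, and neither a ribosomal RNA nor a transfer RNA of the organelle is among the symbols. H22 cells, a mouse hepatocellular carcinoma (HCC) line, had been injected under the skin of young female BALB/c mice. The control group received 0.5% carboxymethyl cellulose sodium, the vehicle, and the luteolin group 200 mg/kg luteolin, a plant flavonoid. Both were given by gavage in 0.2 mL every day for 21 days, starting at a tumour volume near 50 mm3, and both groups carry the genotype label WT. Each group gave 3 libraries, numbered as in the labels, and the labels do not state that each came from its own animal. The p values below therefore measure the spread between these libraries, part of which may be technical.

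Oxidative phosphorylation makes most of the ATP of a resting cell. Complexes I to IV of the inner mitochondrial membrane pass electrons from NADH and succinate to oxygen and pump protons, and complex V, the ATP synthase, lets the protons flow back to make ATP. The mitochondrial genome encodes core subunits of complexes I, III, IV and V, and it is transcribed inside the organelle, whereas the other subunits, and complex II entirely, are encoded in the nucleus and imported. Tumours differ in how far they rely on this pathway or on glycolysis.

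Total estimated counts per library ranged from 61081637 to 80442954, and 14963 genes passed the filter on low counts. CPM values are counts scaled to a common library total after normalization. These were bulk tumours, in which fewer cells of a type and less RNA per cell cannot be told apart. Other cells were present to differing degrees. The labelled tissue was checked with hepatoma markers. Afp, the fetal liver protein, was detected in every library, at 43.4 to 66.7 CPM in the control group and 32.7 to 41.8 in the luteolin group, Alb ran from 0.868 to 133 CPM, Gpc3 was at 0.633 to 1.30 and 3.13 to 9.34 CPM, and Apoa1 and Ttr were at 0 in 1 and 2 control libraries, with at most 3.07 and 0.392 CPM elsewhere. Summed over 8 keratinocyte markers, the level was 3.92 to 4.58 CPM in the control libraries and 382, 9158 and 15.7 CPM in luteolin replicates 1, 2 and 3. Of those markers, Krt14, Krt5, Krt1, Krt15, Lor and Dsg1a were at 0 in every control library. Fibroblast markers (6 genes) summed to 1408 to 1575 CPM in the control group and 2012 to 4976 in the luteolin group, and leukocyte markers (8 genes) to 371 to 475 and 673 to 936 CPM. Erythroid markers (6 genes) summed to 26.9 to 35.4 and 8.14 to 23.7 CPM, and skeletal muscle markers (10 genes) to 521 to 1191 and 271 to 1201 CPM. Adipocyte markers (8 genes) summed to 19.4 to 86.8 and 21.8 to 446 CPM. Brown adipocyte markers (4 genes) summed to 66.7 to 93.6 and 66.1 to 77.2 CPM, with Ucp1 at 0 in 5 of the 6 libraries. Ppargc1a made up most of the brown adipocyte sum in every library but luteolin replicate 2. Cidea was at 17.0 CPM in that library and at most 0.527 CPM elsewhere. Elovl3 was at 0 to 0.0775 CPM in the control group and 1.83, 29.3 and 0.829 CPM in luteolin replicates 1, 2 and 3. The part of these cells in the results below was not tested.

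Nuclear-encoded genes as a whole differed little between the groups. Of the 96, 93 passed the filter. Ndufb11b and Cox8c had 0 counts in every library, which allows up to 3 counts in each, or up to 12 where 1 read counts as 4 units, and Cox6b2, the testis isoform of a complex IV subunit, had 5, 0 and 4 counts in the control libraries and 14, 107 and 5 in the luteolin libraries. The median log2 fold change (luteolin over control) was 0.04, with a range from -0.52 to 2.23, and 50 members had a positive and 43 a negative value. Over all genes tested the median was -0.01. By the quasi-likelihood test of edgeR, with p adjusted over all genes by the Benjamini-Hochberg method, 0 nuclear members were higher and 0 were lower at an adjusted p under 0.05, where 1.34% and 0.187% of all genes were called. At an unadjusted p under 0.05, 1 member was higher (Ndufa4l2) and 3 were lower (Sdha and Sdhd among them), where the shares over all genes were 14.0% and 6.44%. The threshold used in the study (a fold change over 2 with p under 0.05 before adjustment) gave 1 higher (Ndufa4l2) and 0 lower, against 11.3% and 1.52% of all genes. DESeq2 called 1 member higher (Ndufa4l2, adjusted p = 0.000681) and 1 lower (Sdha, adjusted p = 0.0167). Over all 17478 genes it tested, DESeq2 called 8.83% higher and 2.37% lower. With its unadjusted p under 0.05 there were 5 members higher and 5 lower, against 14.4% and 6.85% of all genes.

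**Figure D1:**
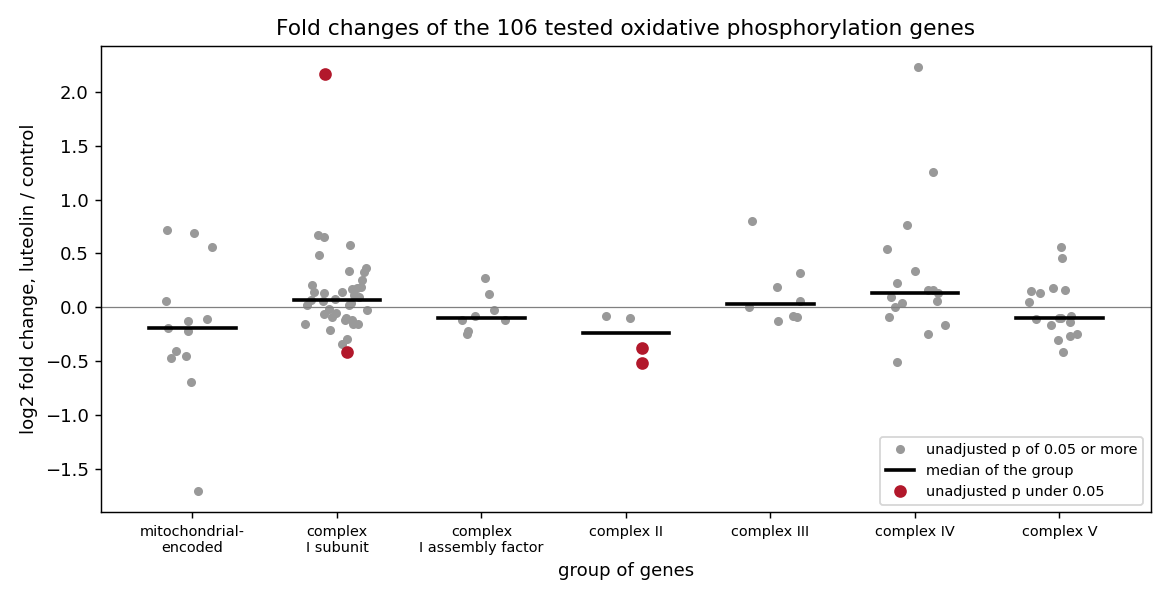
Log2 fold change (luteolin over control, vertical axis) of each of the 106 tested genes, 1 point per gene, by group of genes, with a black line at each group's median. Most genes lie within 0.5 of 0, and the mitochondrial-encoded genes spread from -1.71 to 0.72. The 4 red points (unadjusted p under 0.05, edgeR) include Ndufa4l2, placed with the complex I subunits by its symbol alone, and Sdha and Sdhd in complex II.

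In 4 of the 93 tested nuclear members (4.30%) every luteolin library lay above every control library, and in 6 (6.45%) every one lay below. Over all genes these shares were 15.9% and 12.8%. The members below included Sdha, Sdhd, Atp5a1, Atp5b and Atp5c1, and those above were Ndufa1, Ndufb1, Ndufa4l2 and Cox8b. Of these, Ndufa1 and Ndufb1 are named because their values were seen not to overlap. Cox8b lay above only after scaling, since control replicate 2 and luteolin replicate 1 both had 16 counts, at 0.247 and 0.261 CPM.

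Complex II, succinate dehydrogenase, links the tricarboxylic acid cycle to the respiratory chain, and its 4 subunits showed the lowest median of the complexes, a log2 fold change of -0.24. Sdha, the flavoprotein that oxidizes succinate, stood at 402, 405 and 421 CPM in the control libraries (replicates 1, 2 and 3, the order used throughout) and at 295, 256 and 307 CPM in the luteolin libraries. The control libraries lay close together, and the groups did not overlap. The log2 fold change was -0.52 (SE, the standard error, 0.13 and adjusted p = 0.106, edgeR), with values from -0.61 to -0.43 when each library was left out in turn. Sdhd, a membrane anchor of the complex, had 219, 246 and 207 CPM in the control group and 177, 160 and 178 CPM in the luteolin group. Again every luteolin library was below every control library, with a log2 fold change of -0.38 (SE 0.14, adjusted p = 0.189, edgeR).

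The other two subunits overlapped between the groups. Sdhc, the second membrane anchor, had a control mean of 104 ± 15.4 CPM and a luteolin mean of 97.4 ± 21.1 CPM (SD, n = 3 each), and its highest value, 122 CPM, was in luteolin replicate 2. Sdhb, the iron-sulfur subunit, is given to complete the complex, with 89.1 ± 12.6 and 84.0 ± 8.33 CPM. Summed over the 4 genes, complex II stood at 829, 862 and 789 CPM in the control libraries and 637, 631 and 650 CPM in the luteolin libraries. Sdha and Sdhd made up most of that sum. Sdhaf2, the factor that attaches FAD to Sdha and lies outside the symbol rule, had 80.1, 89.9 and 87.6 against 62.1, 50.4 and 68.8 CPM, also without overlap (log2 fold change -0.51, SE 0.16, adjusted p = 0.161, edgeR).

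**Figure D2:**
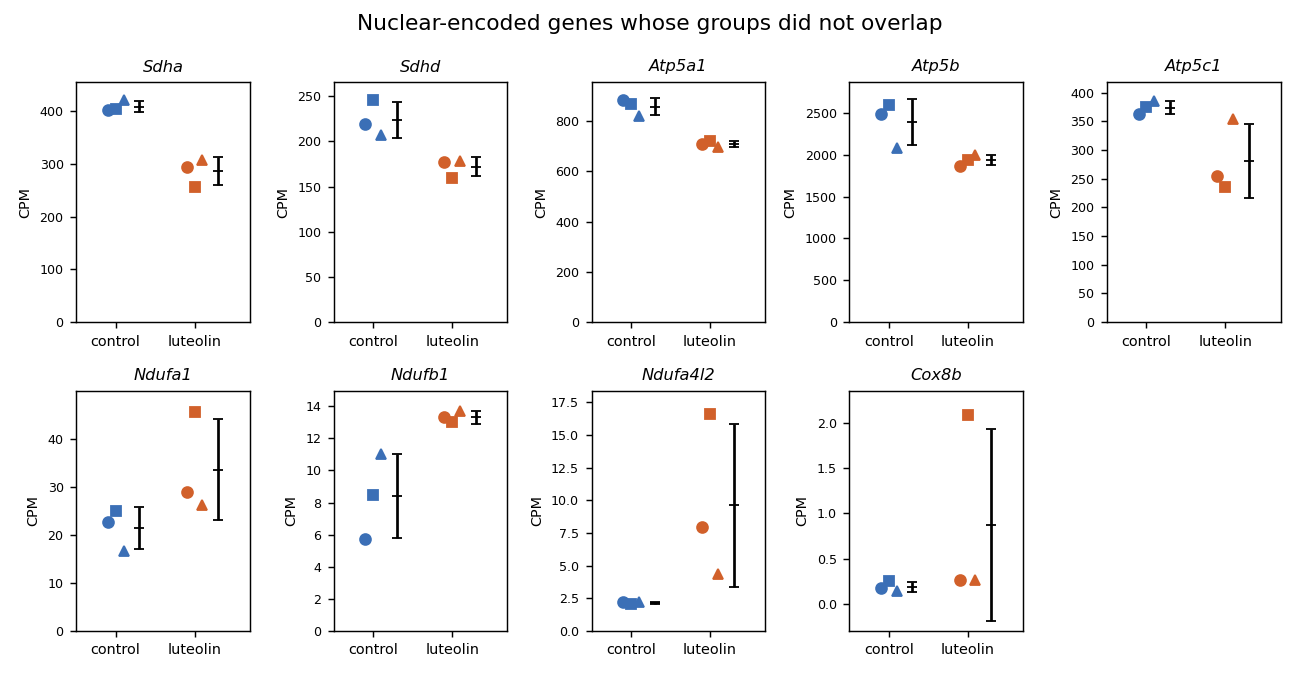
CPM (linear vertical axes, each gene on its own scale) of 9 tested nuclear-encoded genes whose groups did not overlap, with control libraries in blue and luteolin libraries in orange. Circles, squares and triangles are replicates 1, 2 and 3, and the black marks give the mean and SD (n = 3). The first 5 panels show genes with all luteolin libraries lower, and in Ndufa4l2 and Cox8b luteolin replicate 2 lies far above the other libraries, at 16.6 and 2.09 CPM.

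Complex I, NADH dehydrogenase, holds the largest group of members. The 39 tested genes placed among its subunits by symbol alone, Ndufa4 and Ndufa4l2 included, had a median log2 fold change of 0.07. Of these, 24 were positive and 15 negative. The 7 nuclear core subunits, which carry the flavin and the iron-sulfur clusters, had a median of -0.12, with 6 of 7 negative. Ndufs1, the largest core subunit, had 117, 168 and 211 against 142, 97.6 and 151 CPM, and its control range covered all but 1 of the luteolin values. Ndufa9, a subunit of the arm that joins the membrane domain, had 151 ± 19.2 and 131 ± 8.24 CPM with overlap. The sums over all genes placed among the subunits by symbol overlapped, at 1993 to 2740 CPM in the control group and 2140 to 2792 CPM in the luteolin group.

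Small accessory subunits of complex I gave mixed values. Ndufa1 had 22.6, 24.9 and 16.6 CPM in the control group and 28.9, 45.6 and 26.1 in the luteolin group (log2 fold change 0.65, SE 0.28, adjusted p = 0.248, edgeR), and Ndufb1 had 5.72, 8.49 and 11 against 13.3, 13.0 and 13.7 CPM (0.67, SE 0.29, adjusted p = 0.259). The symbol Ndufb1 matches a noncoding model in GENCODE M21 (Ndufb1-ps, a long noncoding RNA), so its values may not be those of a subunit's messenger RNA. In both, the lowest luteolin library lay just above the highest control library. The 8 Ndufaf genes, which help to assemble complex I, had a median of -0.10 and lay between -0.25 and 0.27, and all 8 overlapped. Ndufaf7 (40.3 ± 2.20 and 34.6 ± 3.58 CPM), Ndufaf1 (22.2 ± 6.93 and 18.6 ± 5.73 CPM) and Ndufaf4 (19.8 ± 2.06 and 19.4 ± 4.48 CPM) were the most abundant.

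Ndufa4l2, the hypoxia-inducible relative of Ndufa4, showed the largest difference among members above 1 CPM. It was at 2.18, 2.04 and 2.20 CPM in the control libraries and 7.92, 16.6 and 4.35 CPM in the luteolin libraries. The control libraries were nearly equal, and the luteolin libraries spread over 3.81-fold while all lay above them. The log2 fold change was 2.17 (SE 0.52, adjusted p = 0.0931, edgeR). It was 1.54 without luteolin replicate 2, the library with the highest value and the highest keratinocyte, adipocyte and fibroblast sums, and the adjusted p was then 0.0878. The order of the luteolin libraries in Ndufa4l2 (replicate 2, then 1, then 3) was also that of the fibroblast, keratinocyte, adipocyte, skeletal muscle and erythroid marker sums. The leukocyte, brown adipocyte and hepatoma marker sums had other orders. Within the brown adipocyte list, Cidea (0.392, 17.0 and 0.125 CPM) and Elovl3 (1.83, 29.3 and 0.829 CPM) had the order of Ndufa4l2. Ppargc1a (63.9, 27.5 and 76.2 CPM), the largest part of that sum in replicates 1 and 3, did not. Whether any of these cells carry the transcript was not tested.

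Complex V, the ATP synthase, was the most abundant nuclear group, with 4821 to 6151 summed CPM in the control libraries and 4726 to 5070 in the luteolin libraries. Its 17 members had a median log2 fold change of -0.10. Of the 5 subunits of the F1 head, the part that makes ATP, 3 had every luteolin library below every control library, as 12.8% of all genes did. Atp5b, the catalytic beta subunit, had 2490, 2595 and 2075 CPM in the control group and 1869, 1935 and 1990 CPM in the luteolin group. Control replicate 3 lay near the luteolin values, and the log2 fold change was -0.31 (SE 0.13, adjusted p = 0.257, edgeR). Atp5a1, the alpha subunit, had 883, 866 and 820 against 708, 721 and 695 CPM, with a log2 fold change of -0.27 (SE 0.12, adjusted p = 0.249). Atp5c1, the gamma subunit of the rotating shaft, had 363, 375 and 386 against 254, 235 and 354 CPM, with luteolin replicate 3 just under the control range (-0.42, SE 0.18, adjusted p = 0.265). The 2 smaller head subunits, Atp5d and Atp5e, overlapped, and so did every gene of the c-ring, the peripheral stalk and the small membrane subunits, whose medians were 0.16, -0.13 and 0.05.

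The promoters of Sdha, Sdhd, Atp5c1 and Atp5b are shown, all genes in which every luteolin library lay below every control library. Other members share that direction, Atp5a1 among them, and their promoters are not shown. RefSeq entries on GRCm38.p6 matched 77 of the 96 nuclear members, with 82 promoters. Over the 250 bases upstream of the start, the median GC content was 57.4% for the members and 52.4% for the 32851 promoters of all genes. The windows lie on the minus strand at chr13:74350241-74350490 for Sdha (61.6% GC), chr9:50603850-50604099 for Sdhd (64.4%) and chr2:10080433-10080682 for Atp5c1 (63.6%, 1 of its 2 annotated starts), and on the plus strand at chr10:128083057-128083306 for Atp5b (51.6%). They are written 5' to 3' in lower case, with no part marked.
Sdha: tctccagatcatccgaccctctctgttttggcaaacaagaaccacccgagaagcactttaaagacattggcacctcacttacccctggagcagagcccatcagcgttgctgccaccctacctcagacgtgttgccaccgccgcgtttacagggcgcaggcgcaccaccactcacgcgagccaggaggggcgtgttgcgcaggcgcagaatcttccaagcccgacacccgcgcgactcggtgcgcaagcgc
Sdhd: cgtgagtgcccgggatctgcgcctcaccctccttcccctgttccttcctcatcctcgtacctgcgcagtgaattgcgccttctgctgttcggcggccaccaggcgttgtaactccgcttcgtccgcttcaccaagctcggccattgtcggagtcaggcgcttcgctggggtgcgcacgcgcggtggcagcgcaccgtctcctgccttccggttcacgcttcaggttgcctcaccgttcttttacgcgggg
Atp5c1: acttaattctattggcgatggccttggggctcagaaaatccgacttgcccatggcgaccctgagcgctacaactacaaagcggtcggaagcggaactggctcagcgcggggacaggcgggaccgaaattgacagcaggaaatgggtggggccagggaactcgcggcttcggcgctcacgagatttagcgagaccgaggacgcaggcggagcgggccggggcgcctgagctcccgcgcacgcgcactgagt
Atp5b: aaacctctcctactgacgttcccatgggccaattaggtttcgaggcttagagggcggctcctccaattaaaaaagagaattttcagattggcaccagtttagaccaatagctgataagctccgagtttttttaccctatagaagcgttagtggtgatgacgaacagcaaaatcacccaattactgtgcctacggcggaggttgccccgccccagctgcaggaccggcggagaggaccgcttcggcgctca
No factor's binding was measured in these tumours, and the windows are given as sequence only.

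The summed levels of complexes III and IV overlapped between the groups. The 8 members of complex III, which passes electrons from ubiquinol to cytochrome c, had a median log2 fold change of 0.03, and all 8 overlapped. The core proteins Uqcrc1 and Uqcrc2 had 204 ± 30.4 and 179 ± 30.8 CPM in the control group and 193 ± 29.3 and 168 ± 29.7 CPM in the luteolin group (SD, n = 3 each). Uqcrh, the hinge protein, had 195 ± 33.1 and 194 ± 30.6 CPM, and Uqcrq, a small subunit that binds ubiquinone, 103 ± 34.6 and 128 ± 23.3 CPM. Complex IV, cytochrome c oxidase, had 17 tested members, placed there by symbol alone, Cox5b-ps and Cox7a2l included. Their median was 0.13, with 13 positive and 4 negative. The most abundant of them, Cox4i1, Cox7c and Cox6b1, had control means of 387 ± 95.6, 226 ± 53.1 and 198 ± 45.7 CPM. The luteolin means of these genes were 364 ± 83.8, 233 ± 39.0 and 198 ± 41.0 CPM. The summed complex IV level was 1509 to 2293 CPM in the control group and 1792 to 2417 CPM in the luteolin group.

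**Figure D3:**
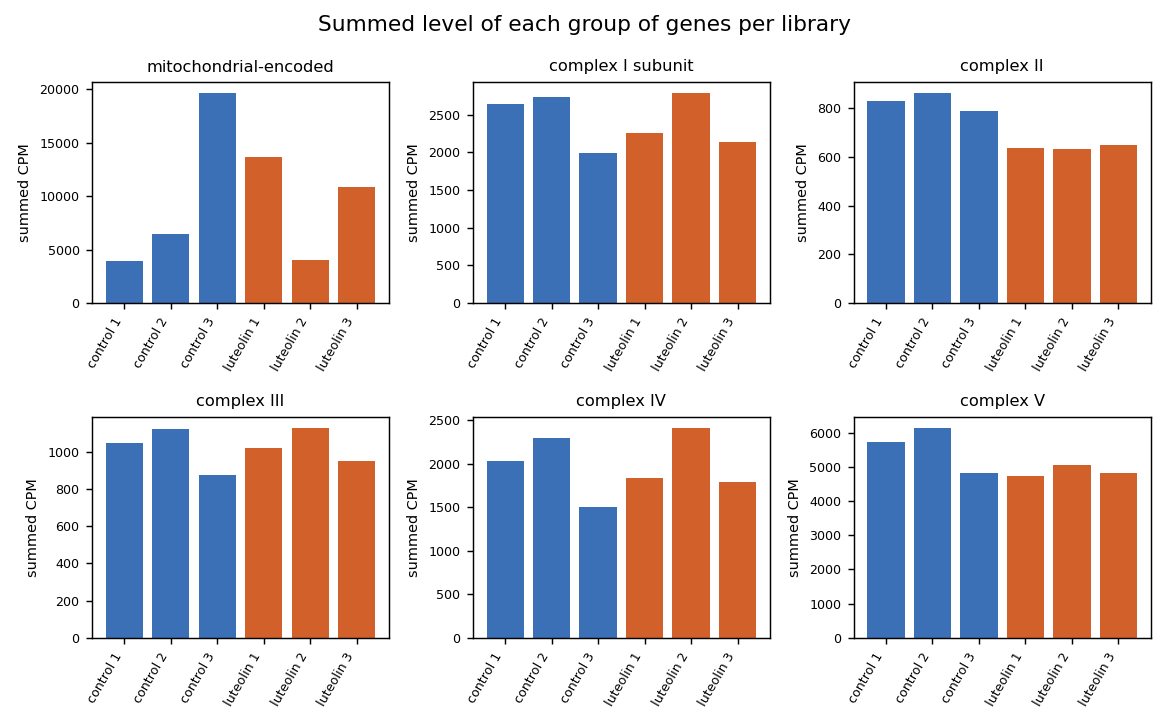
Summed CPM of each group of genes in each library (bars from 0, each panel on its own scale, control in blue and luteolin in orange, 1 bar per library). Complex II is the panel in which the luteolin bars, at 631 to 650, all stand under the control bars, at 789 to 862. In the mitochondrial-encoded panel the bars run from 3913 to 19653 with both groups mixed.

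Isoforms restricted to certain tissues were scarce, and in Cox8b and Cox6a2 the high value sat in 1 library. Cox8b, an isoform of muscle and brown fat, had 12, 16 and 9 counts in the control libraries and 16, 175 and 17 in the luteolin libraries. The value of luteolin replicate 2 set its log2 fold change of 2.23 (SE 1.00, adjusted p = 0.267, edgeR), which was 0.52 without that library. Cox6a2, the muscle isoform, was at 1.79, 1.90 and 1.81 against 2.66, 9.38 and 1.11 CPM, and its log2 fold change of 1.26 became 0.06 without the same library. Luteolin replicate 2 also had the highest of the 6 values for the summed muscle markers (1201 CPM, with control replicate 3 next at 1191) and adipocyte markers (446 CPM, the next being 86.8). Of the brown adipocyte markers, Cidea and Elovl3 were highest in that library (17.0 and 29.3 CPM), Ppargc1a was lowest there (27.5 CPM) and Ucp1 was at 0. Cox4i2, the oxygen-sensitive isoform of lung, lay between 0.340 and 2.11 CPM, with log2 fold change 0.76. Cox7a1, the heart and muscle isoform, had 9.12 ± 2.77 and 7.65 ± 2.71 CPM. Cox7b2, known mainly from testis, was highest in control replicate 3, at 16.8 CPM, against 1.65 to 8.25 CPM in the other libraries.

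Mitochondrial-encoded genes differed far more between replicates than between groups. All 13 were tested, with 0 higher and 0 lower at an adjusted p under 0.05, 0 and 0 at an unadjusted p under 0.05, and 0 and 0 without overlap of the groups, by edgeR. DESeq2 gave 0 in each direction at both thresholds. The median log2 fold change was -0.19, with 4 positive and 9 negative, and it was 0.33 without control replicate 3. Together they made up 0.394%, 0.635% and 1.9% of the counts in the control libraries, and 1.37%, 0.421% and 1.08% in the luteolin libraries. No binomial interval is given, since 1 unit of these estimated counts need not be 1 read. The group means were 0.976% ± 0.809 and 0.957% ± 0.486 (SD, n = 3 each), so the difference was far within the spread. The nuclear members held 1.25%, 1.3% and 0.98% against 1.06%, 1.26% and 1.05%. The ratio of mitochondrial-encoded to nuclear-encoded counts therefore ran from 0.315 to 1.94 within the control group and from 0.333 to 1.28 within the luteolin group.

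The spread sat in 6 of the 13 genes. mt-Nd1, a membrane subunit of complex I, had 94.8, 282 and 1463 CPM in the control group and 1653, 90.1 and 1285 CPM in the luteolin group. Control replicate 1 and luteolin replicate 2 were alike and low, and control replicate 3 and luteolin replicates 1 and 3 were alike and high. The same libraries stood low and high in mt-Co2, a core subunit of complex IV (178, 325 and 1259 against 1587, 137 and 1127 CPM). mt-Co1, the catalytic core of complex IV, had 2340, 3980 and 10256 against 8233, 2843 and 6191 CPM. It had the highest level per length of all members in every library (1515 to 6638 CPM per kb of exon), and held 52.2% to 70.1% of the mitochondrial-encoded counts.

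In mt-Cytb, cytochrome b of complex III, control replicate 3 stood alone, with 288, 360 and 3869 CPM in the control group and 496, 163 and 722 CPM in the luteolin group. Its log2 fold change of -1.71 (SE 1.06, adjusted p = 0.425, edgeR) was 0.51 without that library. The complex I subunits mt-Nd4 (108, 172 and 974 against 305, 111 and 358 CPM) and mt-Nd5 (275, 458 and 1177 against 566, 307 and 511 CPM) were likewise highest in control replicate 3. Their log2 fold changes of -0.70 and -0.47 turned to 0.88 and 0.33 without it. These 6 genes were grouped after their values were seen and held 83.9% to 96.7% of the mitochondrial-encoded counts. Mitochondrial genes are cut from shared long transcripts, and the 13 are therefore not independent measurements.

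**Figure D4:**
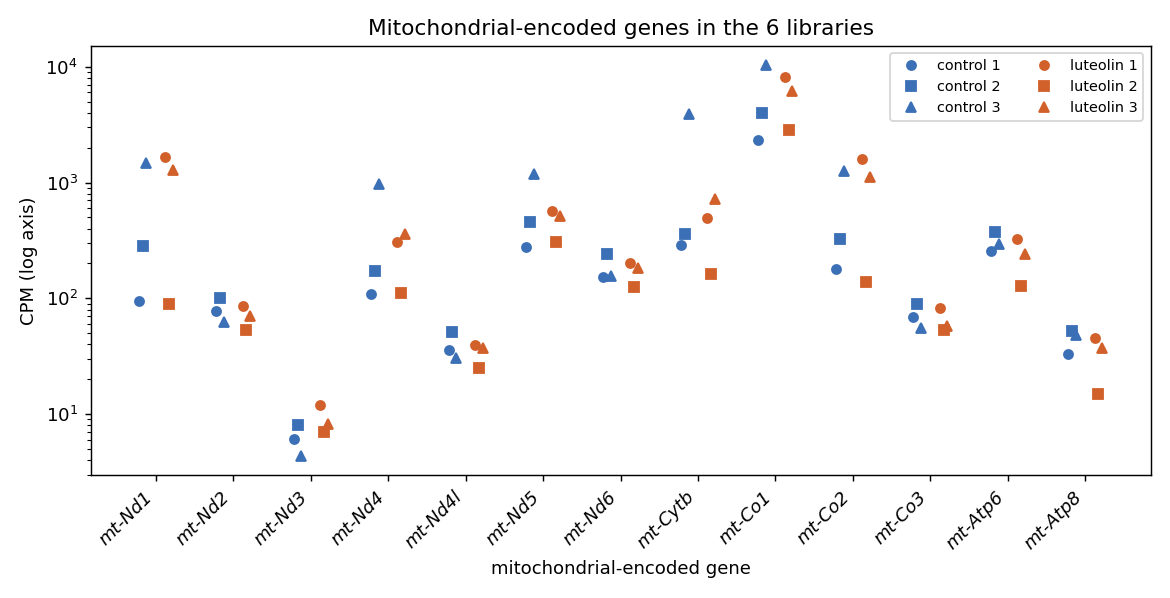
CPM (log axis) of the 13 mitochondrial-encoded genes in each library, with control in blue and luteolin in orange and circles, squares and triangles for replicates 1, 2 and 3. The groups overlap in every gene. In mt-Nd1 and mt-Co2 control replicate 3 and luteolin replicates 1 and 3 lie about together above the other libraries, in mt-Cytb control replicate 3 stands alone at 3869 CPM, and mt-Nd2, mt-Nd6 and mt-Co3 lie close together.

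The other 7 genes stayed within narrower limits. The highest library was 1.66 times the lowest in mt-Co3 (complex IV), 1.88 times in mt-Nd2 and 1.92 times in mt-Nd6 (complex I), 2.06 times in mt-Nd4l, 2.75 times in mt-Nd3, 2.94 times in mt-Atp6 and 3.51 times in mt-Atp8 (complex V). For comparison, it was 23.8 times in mt-Cytb and 18.3 times in mt-Nd1. mt-Atp6, the proton channel subunit of complex V, had 254, 375 and 297 CPM against 325, 127 and 243 CPM, lowest in luteolin replicate 2. mt-Atp8 was lowest in the same library, at 15.0 CPM, with 32.8 to 52.7 CPM elsewhere. mt-Nd3 was the scarcest, with 4.36 to 8 CPM in the control group and 6.99 to 12.0 CPM in the luteolin group. The log2 fold changes of these 7 genes ran from -0.45 in mt-Atp8 to 0.56 in mt-Nd3.

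Near-identical nuclear copies limit how these counts can be read. Against the other gene models of GENCODE M21 on GRCm38, the share of a gene's 100-base stretches that recur elsewhere was 99.5% for mt-Atp6 (in Gm10925), 99.5% for mt-Co2 (Gm28661), 99.9% for mt-Co3 (Gm28437), 97.6% for mt-Nd3, 98.5% for mt-Nd4l, 60.8% for mt-Nd4 and 30.8% for mt-Co1. It was 3.2% for mt-Nd2 and 0% for mt-Cytb, mt-Nd1, mt-Nd5, mt-Nd6 and mt-Atp8. Reads of such stretches have more than 1 place to map, and how the authors' counting divided them is not given in the sources used here, so the levels of the first 7 are uncertain. The genes with wide and with narrow spread both include members with shared and without shared sequence. Among nuclear members, 8 shared over 10% of their stretches, the most in Atp5o (47.1%) and Ndufb4 (33.4%).

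Nuclear members moved together between replicates of the same group. Control replicate 3 was the lowest control library for 71 of the 93 tested nuclear members (76.3%), against 37.7% of all genes. Luteolin replicate 2 was the highest luteolin library for 69 (74.2%), against 48.3% of all genes. For the mitochondrial-encoded genes the same counts were 4 and 0 of 13. The 2 shares were 69.2% and 61.5% in the mitochondrial ribosomal proteins and 62.2% and 59.5% in the assembly factors outside the symbol rule. They were 55.6% and 50.0% in the tricarboxylic acid cycle list, and 52.2% and 52.2% among electron carriers and other entry points. Genes that copy and transcribe mitochondrial DNA had 42.9% and 14.3%, and transcription factors and coactivators of respiratory genes 45.5% and 18.2%. The median deviation of the nuclear members from their mean over the 6 libraries was 0.14, 0.21 and -0.36 on the log2 scale in the control group and -0.06, 0.29 and -0.15 in the luteolin group, in replicate order. For the mitochondrial-encoded genes it was -0.25, 0.14 and 0.42, and 0.31, -0.79 and 0.07. The 2 sets thus had opposite signs in 5 of the 6 libraries, control replicate 2 being the exception.

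**Figure D5:**
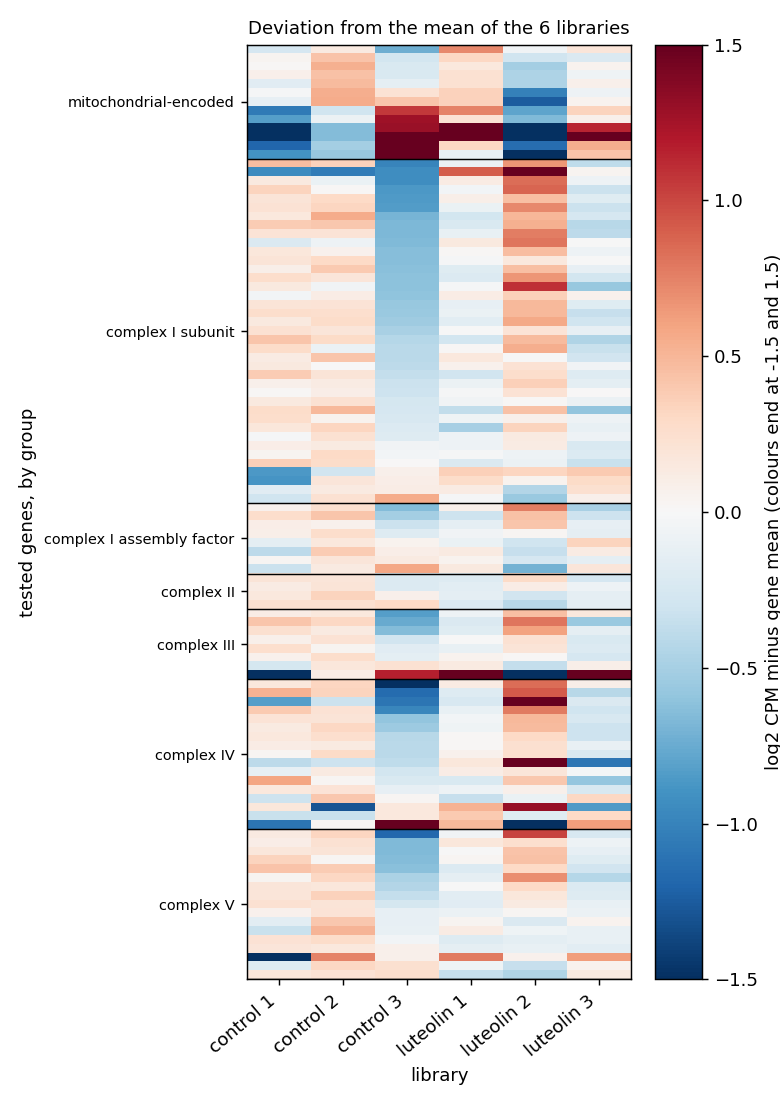
Deviation of log2 CPM from each gene's mean over the 6 libraries (colour, ending at -1.5 and 1.5) for the 106 tested genes (rows, by group and then by the value in control replicate 3). Most nuclear-encoded rows are blue in control replicate 3 and red in luteolin replicate 2, with medians of -0.36 and 0.29, and the mitochondrial-encoded rows have medians of 0.42 and -0.79 there.

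Within the nuclear set the deviations also varied with base composition and length. Across the 93 nuclear members of a library, the Spearman correlation of a gene's deviation with its GC content was 0.37, -0.09 and -0.44 for the control libraries and -0.24, 0.56 and -0.34 for the luteolin libraries. Over all tested genes it was 0.42, -0.17 and -0.52, and -0.18, 0.43 and -0.35. With exon length it was -0.07, 0.12 and 0.37 for the control libraries and -0.04, -0.47 and 0.21 for the luteolin libraries across the nuclear members, and -0.09, -0.04 and 0.21, and 0.05, -0.20 and 0.12 over all tested genes. These are correlations across genes of 1 library, which are not independent replicates. The nuclear members were close to all genes in GC content but had shorter exons in total. The median GC content was 50.2% for nuclear members, 37.1% for mitochondrial-encoded genes and 49.9% for all genes tested, and the median exon length was 1501, 784 and 4268 bases. Within the nuclear set, Cox8a (58.5% GC), a small subunit of complex IV chosen after its values were seen, had 244, 214 and 76.2 CPM in the control group and 149, 321 and 128 CPM in the luteolin group. Uqcrb (40.4% GC), the ubiquinone-binding subunit of complex III, did the reverse, with 4.04, 21.9 and 45.5 against 62.0, 4.92 and 57.5 CPM. The low and high libraries of Uqcrb were those of mt-Nd1. Atp5mpl (53.9% GC), a small subunit of complex V, did not follow either, at 9.66 CPM in control replicate 1 and 49.5 to 81.8 CPM in the other libraries. The part of base composition and length in the levels was not tested beyond an offset for GC content and length, under which 1 nuclear member was higher (Ndufa4l2, log2 fold change 1.83, adjusted p = 0.048) and 2 were lower (Sdha among them, -0.52, adjusted p = 0.0476) by edgeR.

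Genes around the respiratory chain are read beside the shares over all genes. At an unadjusted p under 0.05 (edgeR) these were 14.0% higher and 6.44% lower. Of the 18 tested genes of the tricarboxylic acid cycle and pyruvate entry, 0 passed an adjusted p under 0.05 by edgeR, 0 were higher and 1 was lower at an unadjusted p under 0.05, and 17 had a negative log2 fold change with a median of -0.20. In 5 of the 18 (27.8%) all luteolin libraries lay below all control libraries, as in 12.8% of all genes. Idh3g, a subunit of NAD-dependent isocitrate dehydrogenase, had 159, 150 and 133 CPM against 111, 120 and 108 CPM (log2 fold change -0.38, SE 0.14, adjusted p = 0.191, edgeR). Pdha1, of the pyruvate dehydrogenase complex, overlapped, at 298, 365 and 420 against 281, 194 and 309 CPM. The summed level of the 18 genes was 3858 to 3972 CPM in the control group and 3232 to 3587 CPM in the luteolin group.

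Among 23 electron carriers and other entry points, 1 was higher and 2 were lower at an unadjusted p under 0.05, and 0 at an adjusted p under 0.05 (edgeR). Over all genes 14.0% were higher and 6.44% lower at the unadjusted p, and 1.34% and 0.187% at the adjusted p. Slc25a4, the ADP/ATP carrier of muscle and other tissues, had 513, 446 and 368 CPM in the control group and 280, 333 and 278 CPM in the luteolin group (log2 fold change -0.57, SE 0.17, adjusted p = 0.139). Its relative Slc25a5, named for comparison, had 370, 432 and 366 against 373, 430 and 412 CPM. Sqor, which feeds electrons from sulfide oxidation into the ubiquinone pool, was at 4.76, 6.92 and 6.88 against 10.9, 12.5 and 9.40 CPM (0.82, SE 0.28, adjusted p = 0.174). Coq9, a factor of ubiquinone synthesis, was the second lower gene, with a log2 fold change of -0.39.

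The 78 mitochondrial ribosomal proteins, which translate the 13 mitochondrial-encoded genes, had a median of -0.05, with 0 higher and 2 lower at an unadjusted p under 0.05 and 0 at an adjusted p under 0.05 (edgeR). For this list and those below, the shares over all genes at the unadjusted p were 14.0% higher and 6.44% lower. Mrpl49 had 74.4, 70.6 and 61 against 42.0, 47.6 and 44.3 CPM (log2 fold change -0.62, SE 0.15, adjusted p = 0.0961), and Mrpl45, which tethers the ribosome to the membrane, 74.3, 77.7 and 67.0 against 57.5, 60.3 and 56.7 CPM. Of the 37 assembly factors outside the symbol rule, 0 were higher and 2 were lower at the same p, Sdhaf2 and Uqcc1, a complex III factor with 76.2, 86.2 and 82.1 against 61.5, 52.9 and 68.9 CPM. None of the 21 genes that copy and transcribe mitochondrial DNA passed an unadjusted p under 0.05. Those with the smallest p, Mterf4 and the helicase Twnk, had log2 fold changes of -0.37 and -0.31. Likewise 0 of 11 tested transcription factors and coactivators of respiratory genes passed it, the first being Ppargc1b (4.14, 3.54 and 2.70 against 4.18, 6.20 and 5.43 CPM) and Pprc1 (log2 fold change 0.38). Nrf1, a known regulator of respiratory genes, had 35.0 to 43.7 CPM in the control group and 27.7 to 37.4 CPM in the luteolin group. The leukocyte and fibroblast marker sums were higher in every luteolin library. Of the 5 tested hepatoma markers, 1 had a negative log2 fold change (Afp, -0.58, adjusted p = 0.187, edgeR). The other 4 had positive values, and the median of the list was 1.57. The share of the differences above that goes with the mix of cells was not tested.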

How the data were processed

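RNA-seq libraries of tumours, 3 control and 3 luteolin, were analysed. The paper names Trizol extraction and a TruSeq kit, and the sample labels RNeasy and SMARTer kits. The submitters' processing notes name bcl2fastq 2.0, HISAT2, StringTie and DESeq2 and the builds rn6 and mm39. The authors deposited estimated counts (expected counts) as whole numbers per gene symbol, unscaled, whose low values fall mostly on multiples of 4, so 1 unit need not be 1 read. 0 columns were left out. Groups and replicate numbers came from the labels.

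Counts were compared in R 4.3.3 with edgeR 4.0.16 (TMM, filterByExpr, quasi-likelihood test, no covariates) over all genes, with two-sided p values adjusted by Benjamini-Hochberg over the 14963 tested. Members are called at an adjusted p under 0.05. CPM used TMM-scaled totals, and fold changes the fitted model. The 6 libraries were compared in pairs, and the Pearson correlation of log2 CPM within a group ranged from 0.892 to 0.969, so no library was counted as a duplicate. GENCODE M21 gave GC content and exon length for 14866 tested genes, and no position was taken from the table.

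Alternatives were DESeq2 1.42.0, RLE and upper-quartile normalization, no low-count filter, a minimum of 10 counts, values divided by 4, a GC content and length offset (splines with 4 and 3 degrees of freedom), a block for the replicate number, and leaving out 1 library at a time. The scripts were tested on simulated data. Genes named are every mitochondrial-encoded gene, members at either threshold, the 3 most abundant and the 2 with the smallest p of each complex, the tissue-restricted isoforms, and the 2 with the smallest p of each other list. A gene so selected is left out of the text. Some genes outside this rule are said to be so where they are named. Nrf1, Atp5mpl, Atp5d, Atp5e, Coq9, Atp5o, Ndufb4, Cox5b-ps, Cox7a2l and cell type markers are named outside it without being marked. The members and lists were chosen with earlier results of these data known.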

Additional observations from a re-analysis of the deposited data

How the results depend on the processing

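The count of nuclear members at an adjusted p under 0.05 was 0 in each direction under edgeR, under all alternatives but DESeq2 (1 higher, 1 lower) and the GC content and length offset (1 higher, 2 lower). At the study's threshold DESeq2 gave 3 nuclear members higher in place of 1, and 1 to 4 were higher when each library was left out (2 without luteolin replicate 1 and 4 without luteolin replicate 3). The median of the nuclear members was -0.07 to 0.08 under the settings that kept all libraries and -0.12 to 0.15 with a library left out, negative without control replicate 3 or luteolin replicate 2. That of the mitochondrial-encoded genes ran from -0.35 to 0.33, positive only without control replicate 3. The correlations of same-numbered deviations were -0.196, -0.092 and 0.063, and those of differently numbered ones ran from -0.124 to 0.2. The deviations also varied with GC content, so these values cannot tell whether the numbers pair the libraries. With the replicate block the members gave 0 and 0, the nuclear median was 0.05, and all genes gave 34 higher and 1 lower, against 200 and 28. Over all genes, 0 were called in either direction at an adjusted p under 0.05 without any 1 control library or without luteolin replicate 1. DESeq2 called 1543 and 415 over all genes, and the offset 657 and 231.

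Of the 39 tested genes named among the members, 23 kept their sign in every alternative. The reversals all concerned values near 0 or genes with large spread, and the cause was not tested. With all libraries kept, Ndufaf4 turned to 0.01 (upper-quartile) and 0.09 (offset), Uqcrh to 0.04 (upper-quartile), 0.01 (minimum of 10 counts) and 0.00 (values divided by 4), and Cox6b1 to -0.01 (DESeq2), -0.01 (RLE), -0.03 (no filter) and -0.20 (offset). With each library left out, the log2 fold change ran from -0.31 to 0.86 in mt-Co1, -2.20 to 0.51 in mt-Cytb, -0.35 to 0.06 in mt-Co3, -1.15 to 0.88 in mt-Nd4, -0.83 to 0.33 in mt-Nd5, -0.26 to 0.13 in mt-Nd6, -0.37 to 0.03 in mt-Nd4l, -0.46 to 0.00 in Ndufaf1, -0.27 to 0.12 in Ndufaf4, -0.19 to 0.00 in Uqcrc1, -0.14 to 0.08 in Uqcrh, -0.24 to 0.07 in Uqcrc2, -0.33 to 0.10 in Cox4i1, -0.13 to 0.20 in Cox7c, -0.18 to 0.10 in Cox6b1 and -0.93 to 0.54 in Cox7b2. Those of Sdha, Sdhd, Atp5a1, Atp5b, Atp5c1 and Ndufa4l2 kept their sign throughout. With 3 libraries a group, differences of low-count isoforms rest on single libraries.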
